A study of Arabidopsis thaliana with 28 samples.

Results

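The quiescent center (QC) was compared with the dividing initials that touch it in the root tip of Arabidopsis. Of the 28 samples and 8 cell populations in the series, 16 samples of 5 populations entered. They are 3 QC samples sorted on WOX5:GFP, and 13 samples of 4 populations of initials: 3 of the cortex endodermis initials (CEI, CYCD6:GFP), 3 of the initials of epidermis and lateral root cap (Epi/LRC, marked by FEZ:FEZ:GFP), 3 of the columella stem cells (CSC, J2341:GFP) and 4 of the xylem initials (Xyl, TMO5:3xGFP). The samples were chosen by their population label and not by any measured value. The protophloem population, the whole stem cell niche (SCN, AGL42:GFP) and the non-stem cells (NSC) were left out of the comparison. The QC was set against the mean of the 4 populations of initials with equal weight, and then against each population in turn.

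All plants were seedlings grown for 5 days, and every population, the initials included, carried a fluorescent reporter. The paper names Col-0 as its wild type and does not state the accession of each marker line. Root tips were cut and protoplasted, fluorescent cells were sorted, and RNA-Seq libraries were made from their RNA. Each population came from 1 marker line, so that line, with its accession, and cell type cannot be told apart. WOX5:GFP, CYCD6:GFP and TMO5:3xGFP are promoter reporters and J2341 is an enhancer trap. FEZ:FEZ:GFP is a translational fusion, and transcripts of its transgene can count toward FEZ itself.

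The QC is a small group of cells at the center of the root niche that divide rarely. The initials around it divide regularly and each gives rise to a tissue file. WOX5, a homeodomain transcription factor made in the QC, is known for keeping the adjacent columella stem cells undifferentiated. PLETHORA (PLT) proteins, sulfated RGF peptides and an auxin maximum are known to position the niche, and SHR and SCR specify the QC together with the ground tissue.

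Levels are FPKM, in which fragments are scaled by transcript length and by the size of the library, and differences were taken on log2(FPKM + 1), a scale that understates the change of genes with a low FPKM. A gene was called at a Benjamini-Hochberg adjusted p under 0.06 in limma together with a fold change above 2, the thresholds of the study. Of 33201 genes, 20634 reached 1 FPKM in at least 3 of the 16 samples and were tested. In QC minus initials, 291 genes were called higher in the QC (1.41% of those tested) and 181 lower (0.877%), together 2.29%. Over all tested genes the median difference was 0.10 and 54.9% of differences were above 0. In such bulk samples, fewer cells of a type and less RNA per cell cannot be told apart. The calls depended on the QC libraries. Without QC replicate 2 there were 74 genes called higher and 21 lower, and without QC replicate 3 there were 109 and 20. Of the 104 called genes chosen for closer description, 21 kept their call in all 16 fits that left out 1 sample, WOX5, PI, LSH3, AT2G24700, MIR319b, WIP4, WIP5, CYP79B3, TEL1, AT5G23830, AT3G17100, AT3G17090, AT3G24100 and AT4G32208 among them. Another 6 kept it in 13 fits but could not be tested without a QC sample.

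The QC libraries detected between 14955 and 18261 genes at 1 FPKM or more, and the libraries of the initials between 14492 and 18511. Correlations between replicates on the log2 scale were 0.81 to 0.87 for the QC, 0.74 to 0.87 for CEI, Epi/LRC and CSC, and 0.88 to 0.93 for Xyl. The CEI libraries stood apart, because 38 genes were more than 10 times above every other of the 16 samples in all 3 of them, against 0 such genes in the QC, 1 in Epi/LRC, 9 in CSC and 15 in Xyl. They include the ribosomal RNA locus AT2G01020, at 9233 to 32474 FPKM in CEI and at most 4.41 FPKM in the other populations of the comparison, and 3 near-identical copies of a ribosomal protein S5 gene. With the CEI population left out of the mean of the initials, 666 genes were called higher and 523 lower, and without CEI replicate 2 there were 626 and 839. Among the markers, WOX5 was highest in the QC, FEZ in Epi/LRC and TMO5 in Xyl, at 851 to 1340.4 FPKM. FEZ did not separate Epi/LRC from CSC, because its lowest Epi/LRC sample, at 72.3 FPKM, lay below the CSC mean of 80.8 FPKM. CYCD6;1, the cyclin that marks CEI, did not separate its population, at 1.48 to 22.7 FPKM in CEI and 6.30 to 24.0 FPKM in CSC. The CEI columns were matched by the initial and number in their names alone, and the level of CYCD6;1 does not settle that match, on which every CEI value rests.

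WOX5 had the largest difference of all genes called higher, but its reporter was used to sort the QC, so its level is not independent of the sort. Its level was 264, 145 and 127 FPKM in the QC samples, 8.70 to 27.1 FPKM in CEI, 0 to 8.94 FPKM in CSC and at most 0.220 FPKM in Xyl, and it was listed at 0 in all Epi/LRC samples. All QC samples lay above all samples of the initials. The difference was 6.05 ± 0.58 (SE) on the log2 scale (adjusted p = 1.09e-04, limma), and WOX5 was called against each single population, with the smallest difference against CEI (3.19, adjusted p = 0.0386).

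The question of which genes set the QC apart from every initial was answered by the genes called in all 4 single contrasts, which share the QC samples. By itself, the contrast with CEI called 374 genes (1.81%, of which 165 higher, 0.8%), that with Epi/LRC 286 (1.39%, 218 higher, 1.06%), that with CSC 1510 (7.32%, 840 higher, 4.07%) and that with Xyl 4035 (19.6%, 2216 higher, 10.7%). There were 11 such genes higher in the QC (0.0533% of those tested). Of these, 7 passed the filter on low values only with the QC samples, and 6 of the 7 reached 1 FPKM in no sample of the initials, so that they could not have been tested without being high in the QC. Among the other 4 were WOX5, whose reporter was used to sort the QC, PI and the B3-domain gene AT2G24700. PI, a MADS-box transcription factor known for petal and stamen identity in flowers, was at 52.9, 25.0 and 17.2 FPKM in the QC and between 0 and 4.91 FPKM in the initials, with a median of 0.304 FPKM. Its difference was 4.00 ± 0.54 (adjusted p = 0.00162, limma).

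AT2G24700, annotated as a B3 family transcription factor, was even across the QC samples at 21.8, 19.1 and 21.4 FPKM, and reached at most 7.38 FPKM in the initials (median 0.695). Its difference was 3.56 ± 0.45 (adjusted p = 9.9e-04, limma). LSH3, a member of the ALOG family known at organ boundaries, was at 13.7, 15.1 and 3.04 FPKM in the QC. It was listed at 0 in every Epi/LRC and Xyl sample and did not exceed 1.46 FPKM elsewhere among the initials. The groups did not overlap, but the initials were near or below the filter of 1 FPKM. The remaining genes called in all 4 contrasts were low in the QC as well, such as AT3G14030, which encodes an F-box associated protein, at 4.34 to 8.63 FPKM, and BGAL7, which encodes a beta-galactosidase, at 2.05 to 4.63 FPKM.

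**Figure D1:**
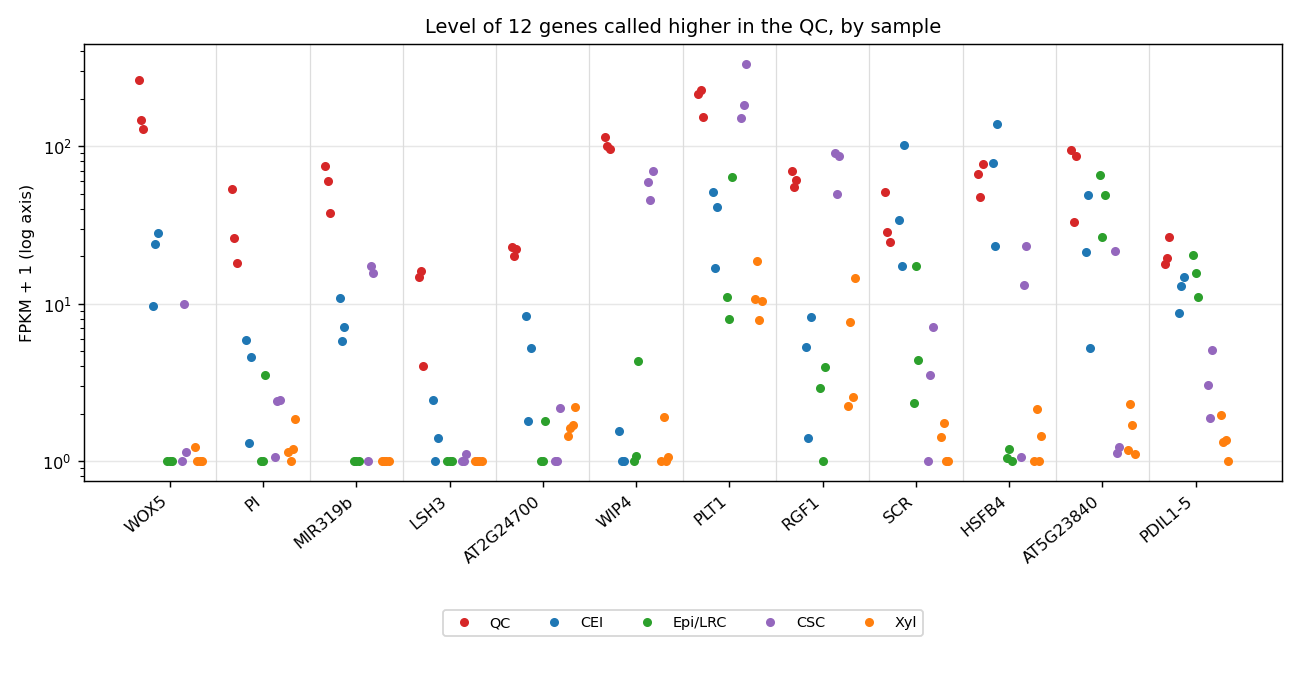
FPKM + 1 on a log axis for 12 genes called higher in the QC, with 1 point per sample and a color per population. WOX5, PI, LSH3 and AT2G24700 have all QC samples above all samples of the initials, whereas WIP4, PLT1 and RGF1 have CSC samples near the QC, and SCR and HSFB4 have CEI samples near it.

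A microRNA locus was also among the largest differences. MIR319b was at 73.5, 59.2 and 36.4 FPKM in the QC, 4.75 to 9.84 FPKM in CEI and 0 to 16.4 FPKM in CSC, and was listed at 0 in all Epi/LRC and Xyl samples (difference 4.38 ± 0.65, adjusted p = 0.00329, limma). All QC values lay above all values of the initials. MIR159a, a locus of a related family, was called close to the threshold (2.95 ± 0.74, adjusted p = 0.0523, limma). It was at 9.44, 12.7 and 12.3 FPKM in the QC, and its highest sample of the initials, at 10.7 FPKM, overlapped the lowest QC sample. Its call was lost in 11 of the 16 fits that left out 1 sample, among them those without each of the QC samples (adjusted p up to 0.178). The other 41 of 43 tested miRNA loci were not called, beside 2.29% of all tested genes called in either direction. The library method reads long RNA, so these values belong to the primary transcript and not to the mature miRNA.

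The mature sequences of both loci (RefSeq, TAIR10.1) are shown because they are the only called miRNA loci and their families are known to pair with different transcription factor messengers, miR319 with TCP genes and miR159 with MYB33 and MYB65. Bases 2 to 8, the seed, are in capitals. The first lies at chr5:16660469-16660489 and the other at chr1:27713234-27713254, both on the minus strand.
ath-miR319b: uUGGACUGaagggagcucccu
ath-miR159a: uUUGGAUUgaagggagcucua
Position by position the sequences are identical at 8 of 21 bases and at 3 of 7 seed bases, and with a shift of 1 base they are identical at 17 of 20. Of the known targets, TCP4 (-0.71), MYB33 (0.21) and MYB65 (0.17) were tested and none was called.

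Among the regulators of the QC and the niche, 31 genes were tested, and 11 were called higher and 0 lower, beside 1.41% and 0.877% of all tested genes. The median difference was 1.35, beside 0.10 over all tested genes. The list was drawn up with earlier results of these data known, and it includes WOX5, whose reporter was used to sort the QC. Its median was 0.84 against CEI, 1.70 against Epi/LRC, 0.06 against CSC and 1.83 against Xyl. Apart from WOX5, none of the 11 was called against both CEI and CSC.

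WIP4, WIP5 and NTT, zinc finger proteins of the WIP family known for starting the root meristem in the embryo, were near CSC. WIP4 was at 113, 98.8 and 95.3 FPKM in the QC and 44.2 to 68.3 FPKM in CSC, and did not exceed 3.35 FPKM in CEI, Epi/LRC or Xyl (4.93 ± 0.46, adjusted p = 9.04e-05, limma). Its QC and CSC values did not overlap, but the difference between them, 0.85, was not called (adjusted p = 0.392, limma). WIP5, at 63.2, 96.2 and 41.7 FPKM in the QC (4.23 ± 0.58, adjusted p = 0.00162, limma), and NTT, at 50.6, 57.9 and 50.7 FPKM (3.63 ± 0.76, adjusted p = 0.0218, limma), overlapped CSC at 34.5 to 51.8 and 29.2 to 65.5 FPKM. The call of NTT was lost without QC replicate 2 or 3 (adjusted p up to 0.113, limma).

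PLT1, PLT2 and BBM, AP2-domain transcription factors of the PLETHORA clade, were also near CSC, but not above it. PLT1 was at 215, 225 and 152 FPKM in the QC and 151 to 333 FPKM in CSC, against 6.87 to 63.0 FPKM in the other initials (2.51 ± 0.50, adjusted p = 0.0184, limma). The differences of PLT1, PLT2 and BBM from CSC alone were -0.11, -0.33 and -0.32, and none was called. MYB56 (BRAVO), a repressor of QC division, was at 87.8, 57.7 and 20.5 FPKM in the QC and at most 26.9 FPKM in the initials (3.36 ± 0.62, adjusted p = 0.0127, limma), with its lowest QC sample inside the range of CSC. Without QC replicate 2 the adjusted p was 0.104 for PLT1, 0.185 for PLT2 and 0.0850 for MYB56, and without QC replicate 3 the calls of PLT1, PLT2 and BBM (0.166) were also lost. BBM kept its call in 7 of the 16 fits that left out 1 sample of any population.

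SCR, a GRAS transcription factor of the QC and ground tissue, was at 50.4, 27.5 and 23.53 FPKM in the QC and 16.4 to 100.3 FPKM in CEI, with Epi/LRC, CSC and Xyl at most 16.4 FPKM (2.63 ± 0.66, adjusted p = 0.0504, limma). HSFB4 (SCHIZORIZA), a heat shock factor known for ground tissue fate, was at 65.8, 46.5 and 76.4 FPKM in the QC and 22.1 to 137 FPKM in CEI. Its difference from CEI was -0.01, beside 5.86 from Epi/LRC, 3.19 from CSC and 5.56 from Xyl. AGL42, the MADS-box gene whose reporter marks the niche, was at 10.15, 14.1 and 19.3 FPKM in the QC and 4.22 to 17.1 FPKM in CEI (2.77 ± 0.53, adjusted p = 0.0147, limma). SHR, which moves from the stele into the QC as a protein, was at 2.69 to 4.57 FPKM in the QC and 114 to 155 FPKM in Xyl, and its difference from the mean of the initials, -1.31, was not called (adjusted p = 0.112, limma). The calls of SCR, HSFB4 and AGL42 were lost without QC replicate 2 or 3, with adjusted p up to 0.158, 0.0860 and 0.0827, and that of SCR also without QC replicate 1, CEI replicate 1, CSC replicate 2 or any Xyl sample.

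**Figure D2:**
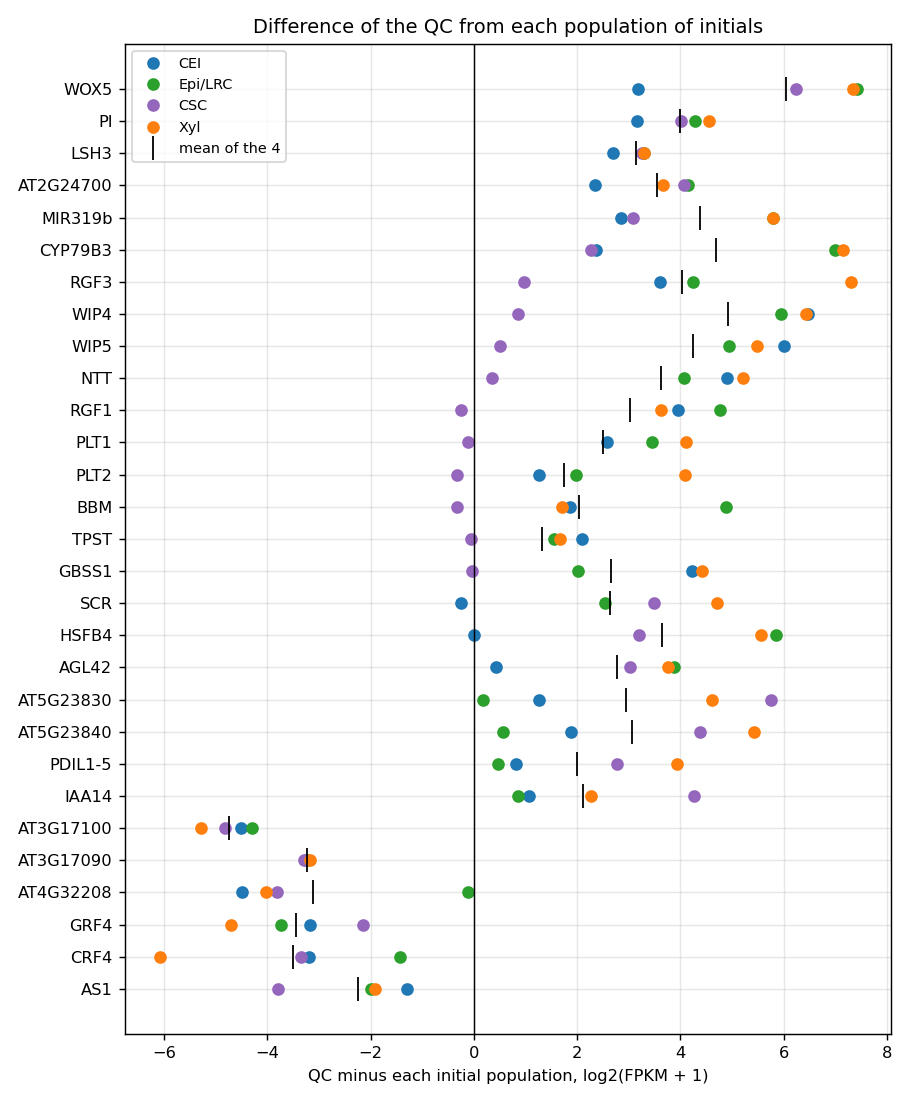
Difference of the QC from each population of initials on log2(FPKM + 1) for 29 genes, with a colored point per population and a black bar for the mean of the 4. The points of WOX5, PI, LSH3 and AT2G24700 all lie to the right of 0, the CSC points of WIP4, PLT1 and RGF1 and the CEI points of SCR and HSFB4 lie near 0, and all points of AT3G17100 lie to the left.

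Of the RGF and CLE peptide genes, 5 of 32 tested were called higher and 0 lower (1.41% and 0.877% of all tested genes), with a median of 0.45. All 5 belong to RGF signalling, in which the secreted peptide must be sulfated to be active. RGF1 was at 68.9, 53.8 and 59.9 FPKM in the QC, 48.6 to 89.1 FPKM in CSC and at most 13.5 FPKM in the other initials (3.03 ± 0.60, adjusted p = 0.0186, limma). RGF3 had the highest level of them, at 672, 1380 and 646 FPKM in the QC and 251 to 741 FPKM in CSC (4.03 ± 0.95, adjusted p = 0.0381, limma). RGF8 was at 307, 298 and 461 FPKM in the QC and 233 to 529 FPKM in CSC, and RGF5 was at 20.24 to 35.5 FPKM in the QC. TPST, the tyrosylprotein sulfotransferase that modifies RGF peptides, was at 40.4, 54.4 and 32.3 FPKM in the QC, with 27.9 to 63.2 FPKM in CSC and 4.95 to 19.0 FPKM in the rest (1.32 ± 0.33, adjusted p = 0.0541, limma). None of these 5 genes was called against CSC alone, where the median of the list was 0.07. All 5 calls were lost without QC replicate 2 or 3, with the adjusted p reaching 0.0860 for RGF8, 0.0882 for RGF1, 0.175 for RGF3, 0.184 for RGF5 and 0.223 for TPST. TPST kept its call in only 4 and RGF5 in only 6 of the 16 fits that left out 1 sample, so samples of the initials ended these calls too.

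Auxin synthesis and transport had 2 of 28 tested genes called higher and 1 lower (1.41% and 0.877% of all tested genes), with a median of 1.04. TAA1, which converts tryptophan to indole-3-pyruvate, was at 117, 90.4 and 73.6 FPKM in the QC, 37.9 to 80.3 FPKM in CSC and 0.0870 to 32.3 FPKM in the other initials (2.66 ± 0.52, adjusted p = 0.0169, limma). Its call was lost without any of the QC samples (adjusted p = 0.0897 without QC replicate 2).

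PID2, a protein kinase of the AGC group, was the auxin gene called lower (-1.80), at 0.791 to 1.76 FPKM in the QC, 78.6 to 89.6 FPKM in Xyl and 7.17 to 26.9 FPKM in CSC. Against CEI, at 0 to 2.93 FPKM, the difference was -0.08, and against Epi/LRC, at 0 to 0.424 FPKM, it was 0.90. Of 52 auxin response genes, 1 was called, the transcriptional repressor IAA14, at 23.2, 30.2 and 32.2 FPKM in the QC, 7.14 to 31.5 FPKM in Epi/LRC and 0 to 1.07 FPKM in CSC (2.12 ± 0.47, adjusted p = 0.0308, limma). In the other hormone lists, 1 of 36 brassinosteroid genes (MYB56) was called, and 0 of 42 cytokinin, 0 of 25 ethylene and 0 of 43 gibberellin and abscisic acid genes, with medians of 0.39, 0.19, 0.25 and 0.06. These counts, and the 1 of 52 auxin response genes, stand beside 2.29% of all tested genes called in either direction. The calls of PID2 (adjusted p up to 0.190) and IAA14 (up to 0.140) were lost without any of the QC samples.

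Beyond the lists, the largest differences included CYP79B3, an enzyme that makes indole-3-acetaldoxime from tryptophan. It was at 139, 118 and 211 FPKM in the QC, above all samples of the initials, which ranged from 0.0310 to 108 FPKM with a median of 0.566 (4.69 ± 0.70, adjusted p = 0.00365, limma). TEL1, an RNA-binding protein of the terminal ear family, was at 39.9, 71.0 and 48.4 FPKM in the QC, 28.7 to 69.4 FPKM in CSC and at most 6.18 FPKM in the other initials. AT5G23830, which encodes a lipid recognition domain protein, was near Epi/LRC, at 516, 334 and 429 FPKM in the QC, 293 to 499.6 FPKM in Epi/LRC and 4.80 to 12.3 FPKM in CSC (2.95 ± 0.39, adjusted p = 0.00141, limma).

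Over all 291 genes called higher, the population with the smallest absolute difference from the QC was CEI for 37.5%, Epi/LRC for 30.6%, CSC for 30.2% and Xyl for 1.72%. For all tested genes the shares of CEI, Epi/LRC and CSC were 34.2, 27.5 and 20.9%, and Xyl was nearest for 3596 of 20634 genes. The median difference of the 291 genes was 1.47 from CEI, 1.87 from Epi/LRC, 2.21 from CSC and 3.22 from Xyl. These values use the contrast that chose the genes and are a description.

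Fewer genes were lower in the QC than in every initial. Only 3 genes were called lower in all 4 single contrasts (0.0145%), AT3G17100, AT3G17090 and AT3G24100. AT3G17100, annotated as a sequence-specific DNA binding transcription factor, had the smallest adjusted p of the comparison. It was at 0.0625, 0.0503 and 0 FPKM in the QC and between 14.3 and 58.4 FPKM in all 13 samples of the initials, with a median of 32.1 FPKM (-4.74 ± 0.38, adjusted p = 2.76e-05, limma).

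Its neighbour AT3G17090, a protein phosphatase 2C gene, was at 3.41, 4.61 and 1.06 FPKM in the QC and 21.6 to 58.2 FPKM in the initials (-3.24 ± 0.37, adjusted p = 4.17e-04, limma). Both genes lie on the plus strand of chromosome 3 of TAIR10.1, AT3G17090 at 5826586 to 5829900 and AT3G17100 at 5831136 to 5832733. Samples outside the comparison were also high, with AT3G17100 at 32.1 to 66.0 FPKM in SCN and 62.9 to 106 FPKM in NSC, and all 25 samples outside the QC were at 14.3 FPKM or above.

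The genes on either side did not share the pattern. AT3G17120 was at 8.36 to 26.5 FPKM in the QC and 5.65 to 28.3 FPKM in the initials, and AT3G17080 did not exceed 3.00 FPKM in either group. AT3G17110, the next locus after AT3G17100, was listed at 0 in the QC and lay between 0 and 11.3 FPKM in the initials. All QC samples came from the WOX5:GFP line, and the line and the cell type cannot be told apart here.

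**Figure D3:**
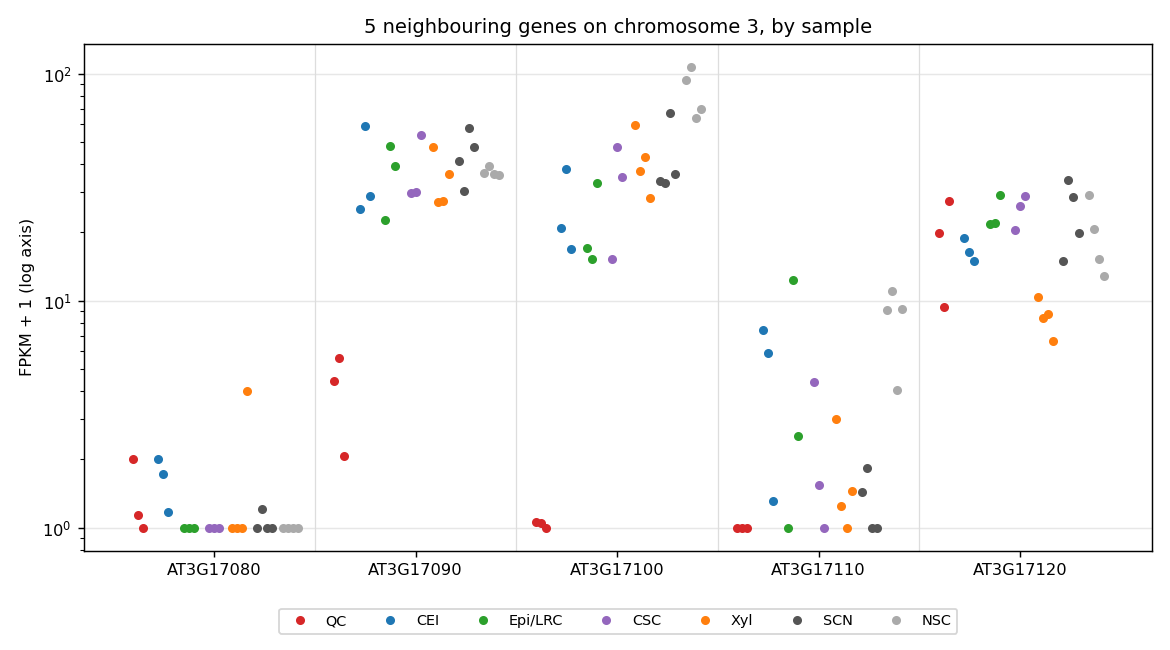
FPKM + 1 on a log axis for 5 neighbouring genes on chromosome 3, in order along the chromosome, with 1 point per sample and a color per population, SCN and NSC included. The QC samples of AT3G17090 and AT3G17100 lie below all samples of the other populations, and those of AT3G17120 lie among them.

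AT3G24100, which encodes a small SERF family protein, was at 21.9, 8.82 and 8.05 FPKM in the QC and 28.2 to 188 FPKM in the initials (-2.14 ± 0.34, adjusted p = 0.00564, limma). AT4G32208, an Hsp70 family gene, was at or below 0.00361 FPKM in the QC and at 10.4 to 27.0 FPKM in CEI, CSC and Xyl. Its Epi/LRC samples were also low, at 0.0111 to 0.124 FPKM, and the difference from them was -0.11.

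Further genes called lower were the transcriptional regulators GRF4, AS1 and CRF4. GRF4, a growth-regulating factor, was at 2.81, 0 and 0.0387 FPKM in the QC and 1.55 to 65.1 FPKM in the initials with a median of 30.1 FPKM (-3.44 ± 0.72, adjusted p = 0.0218, limma). It was the only 1 called of 10 tested growth-regulating factors, whose median was -0.91, beside 0.877% of all tested genes called lower. AS1, a MYB transcription factor that represses KNOX genes in leaves, was at 0.245, 0 and 0.230 FPKM in the QC and 1.65 to 18.9 FPKM in the initials (-2.25 ± 0.41, adjusted p = 0.0111, limma), without overlap. The cytokinin response factor CRF4, at 13.4, 0 and 0.0454 FPKM in the QC, reached 147 to 185 FPKM in Xyl and 0 to 37.1 FPKM in the other initials (-3.51 ± 0.80, adjusted p = 0.0322, limma). Without QC replicate 2 the calls of GRF4 (adjusted p = 0.135), AS1 (0.0746) and CRF4 were lost, and without QC replicate 3 those of GRF4 and CRF4 (0.191).

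Division genes bear on the defining trait of the QC. None of 28 cyclins, 46 DNA replication genes, 25 CDKs and CDK inhibitors or 18 E2F, RBR and DREAM genes was called in QC minus initials, beside 2.29% of all tested genes. Their medians were nevertheless below that of all tested genes, at -0.86, -0.63, -0.23 and -0.56. The difference was below 0 for 24 of 28 cyclins and 38 of 46 replication genes. Of 47 genes of mitosis and cytokinesis, 1 was called, beside the same 2.29%. This was UVI4-LIKE (GIG1), an inhibitor of the anaphase-promoting complex, at 11.7, 10.8 and 8.54 FPKM in the QC and 6.08 to 88.1 FPKM in the initials. It fell by 2.00 on the log2 scale (SE 0.42, adjusted p = 0.0218, limma). Its call was lost without QC replicate 2 or 3 (adjusted p up to 0.111).

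The single contrasts differed in these lists. Against Xyl, 11 of 28 cyclins and 16 of 47 mitosis genes were called lower in the QC (8.82% of all tested genes), with medians of -1.42 and -1.59. Against CSC, 2 cyclins, 1 mitosis gene and 8 replication genes were called lower (3.25%), with medians of -1.19, -0.94 and -1.15. Against CEI (1.01% called lower) none of the genes of these 3 lists was called lower, and the medians were -0.13 for cyclins and 0.20 for mitosis genes, whereas against Epi/LRC (0.33%) 1 cyclin and 1 mitosis gene were. Differences between the contrasts were not tested.

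CYCB1;1, the mitotic cyclin used as a division marker, was at 14.0, 7.99 and 16.8 FPKM in the QC, 77.2 to 122 FPKM in Xyl and 3.81 to 74.6 FPKM in the other initials. Its difference from the mean of the initials was -1.48 and not called (adjusted p = 0.202, limma), and its difference from Xyl was -2.85. The largest differences from Xyl among cyclins were -4.43 for CYCB1;4 and -4.39 for CYCB2;1, and among mitosis genes -3.97 for the spindle checkpoint kinase BUBR1 and -3.38 for CDC20.2, an activator of the anaphase-promoting complex. FZR2, another activator of that complex, which is known for promoting endoreduplication, went the other way and was called higher against Xyl (3.15). TCX2, a CXC-domain protein whose relatives act in DREAM complexes, was at 2.55, 13.7 and 13.6 FPKM in the QC and 4.21 to 43.9 FPKM in the initials, and was not called (-1.17, adjusted p = 0.22, limma).

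**Figure D4:**
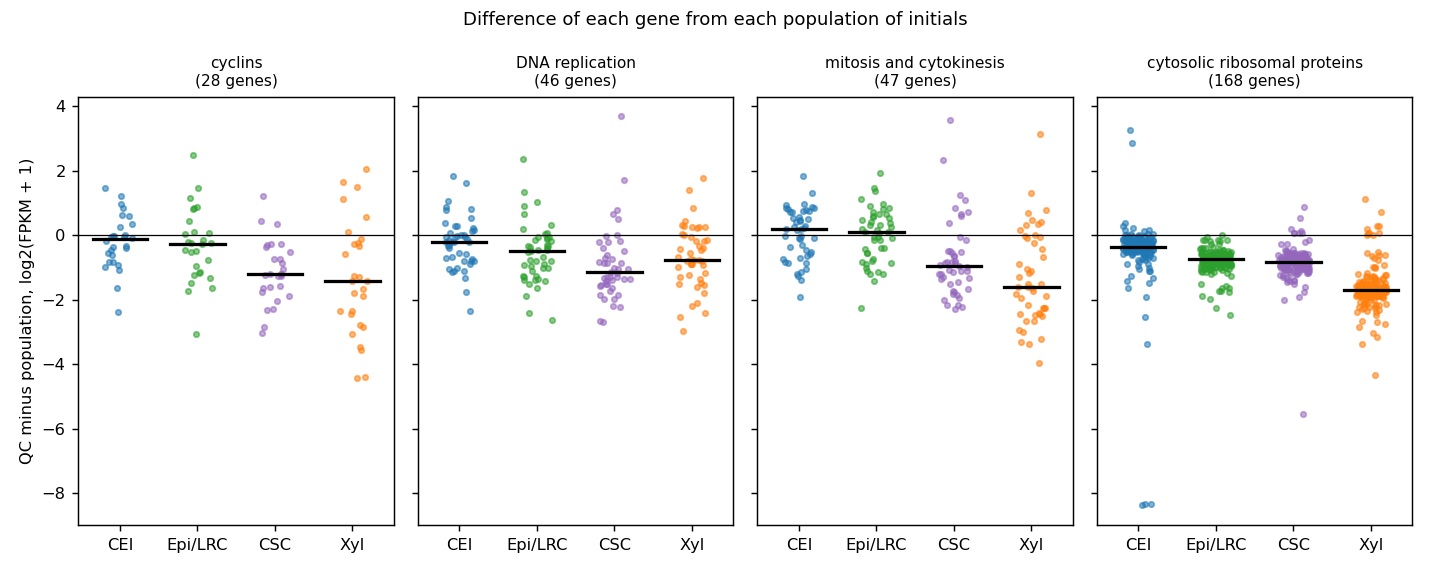
Difference of the QC from each population of initials on log2(FPKM + 1) for every tested gene of 4 lists, with 1 point per gene and a black line at the median. The medians of cyclins lie at -0.13 for CEI, -0.26 for Epi/LRC, -1.19 for CSC and -1.42 for Xyl, and those of ribosomal protein genes lie below 0 for every population.

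The 250 bases before the annotated start of protein-coding genes in TAIR10.1 (RefSeq) were searched on both strands for AACGG, the core of the motif bound by MYB3R factors in mitotic genes, and for TTTCCCGC, an E2F site. AACGG was present in 24 of 47 mitosis genes (51.1%) and 11 of 30 cyclins (36.7%), beside 20.6% of all 27443 such windows. TTTCCCGC was present in 11 of 46 replication genes (23.9%), beside 0.619% of all windows, and in none of the cyclins. Among genes called lower in QC minus initials, AACGG was present in 29 of 157 windows (18.5%) and TTTCCCGC in 0, beside 21.8% and 0.63% of tested genes. Among cyclins and mitosis genes called lower against Xyl, 12 of 27 windows held AACGG (44.4%). The shares thus describe the lists and not the difference of the QC. A match is a description and not a binding site. The 2 windows shown belong to the genes with the largest fall against Xyl among the cyclins and the replication genes that held the motif without overlapping another annotated gene. They lie at chr2:7663805-7664054 and chr5:5474116-5474365, both on the plus strand, with the matches in capitals.
CYCB2;1: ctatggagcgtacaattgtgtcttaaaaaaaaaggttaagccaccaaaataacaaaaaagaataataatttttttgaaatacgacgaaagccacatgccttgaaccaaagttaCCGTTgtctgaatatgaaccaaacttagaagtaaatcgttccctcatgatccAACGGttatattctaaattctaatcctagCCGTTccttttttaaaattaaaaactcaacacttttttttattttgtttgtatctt
ORC3: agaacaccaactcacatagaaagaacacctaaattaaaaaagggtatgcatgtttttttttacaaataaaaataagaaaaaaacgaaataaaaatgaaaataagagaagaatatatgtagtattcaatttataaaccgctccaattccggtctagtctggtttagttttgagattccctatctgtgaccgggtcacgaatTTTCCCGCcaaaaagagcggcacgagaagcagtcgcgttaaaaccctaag
The matches begin 137, 85 and 56 bases before the start of CYCB2;1 and 50 bases before that of ORC3, a subunit of the origin recognition complex. CYCB2;1 had a mean of 2.69 ± 2.83 FPKM (SD, n = 3) in the 3 QC samples against 61.9 ± 9.04 FPKM (SD, n = 4) in Xyl (adjusted p = 0.00224, limma). ORC3 had a mean of 5.01 ± 3.38 FPKM (SD, n = 3) in these samples against 15.5 ± 1.45 FPKM (SD, n = 4) in Xyl (-1.61, adjusted p = 0.0342, limma).

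Nearly all ribosomal protein genes lay below 0. Of 168 tested genes of cytosolic ribosomal proteins, 165 had a difference below 0, with a median of -0.91, but only 4 were called lower (0.877% of all tested genes). These 4 do not follow the list as a whole, because AT1G58684, AT1G58983 and AT1G59359, the S5 copies named above, were at 134 to 695 FPKM in CEI and under 1 FPKM in the QC and the other initials (24.3 to 70.3 FPKM in NSC), and AT3G10950 was listed at 0 in the QC, Epi/LRC and Xyl. The S5 copies are nearly identical, so that reads could be split among them. The median was -0.36 against CEI, -0.74 against Epi/LRC, -0.83 against CSC and -1.70 against Xyl, where 116 of the 168 genes were called lower (8.82% of all tested genes).

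Their summed level was 51672 to 93598 FPKM in the QC, overlapping CEI at 27176 to 174173 FPKM and Epi/LRC at 60791 to 171922 FPKM. It was 104901 to 124665 FPKM in CSC and 189053 to 236120 FPKM in Xyl. FPKM values of a sample share 1 total, so that a lower share of ribosomal transcripts and a higher share of others cannot be told apart. In the list of TOR, SnRK1 and ribosome biogenesis, 11 of 23 genes were called lower against Xyl, beside the same 8.82%. The 1 gene of it called lower against the mean of the initials was SWA1, a nucleolar protein of ribosomal RNA processing (-1.98 ± 0.51, adjusted p = 0.0583, limma), and it kept its call in 3 of the 16 fits that left out 1 sample.

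**Figure D5:**
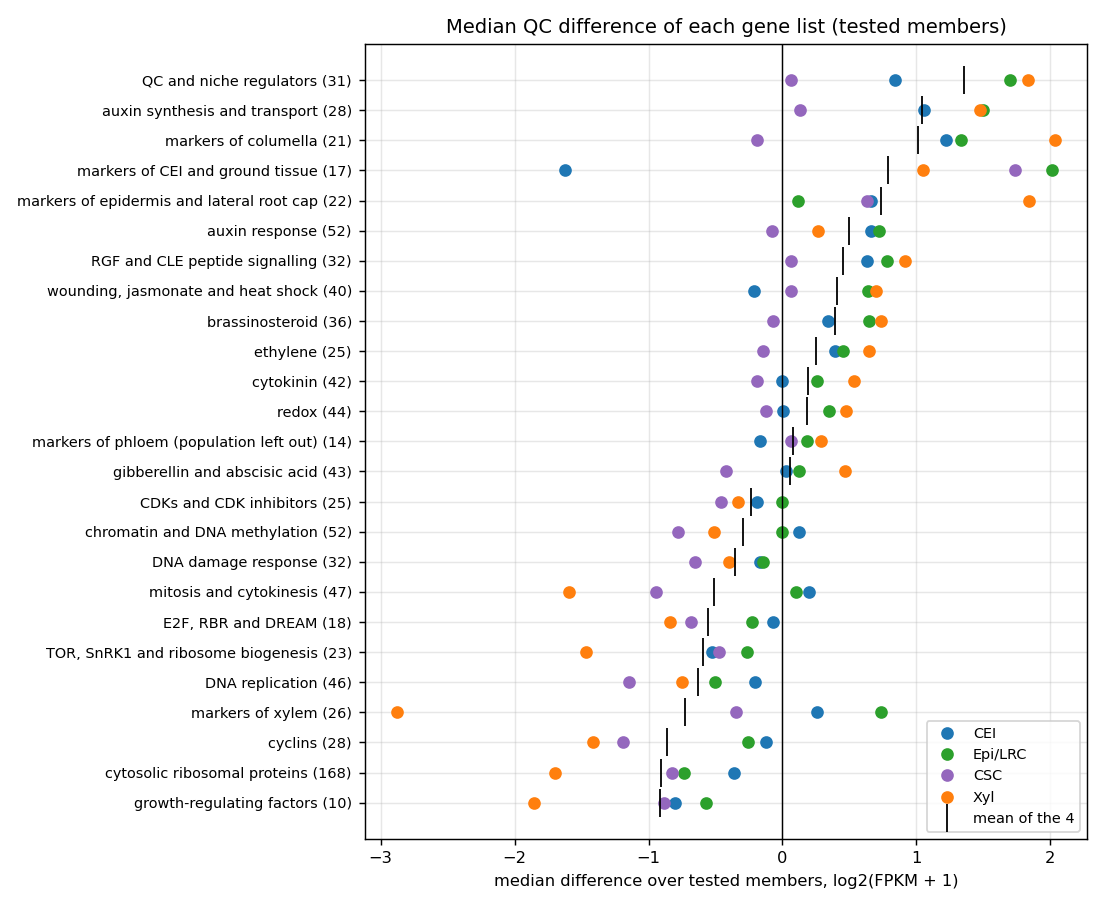
Median difference over the tested members of each gene list on log2(FPKM + 1), with a colored point for each population of initials and a black bar for the mean of the 4; the number of tested genes is in parentheses. Regulators of the QC and niche have the highest median at 1.35, and ribosomal protein genes and growth-regulating factors the lowest at -0.91.

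Markers of the neighbouring cell types were measured in the same samples. Columella markers, 21 genes, had 2 called higher (1.41% of all tested genes), the starch genes GBSS1 and APL4, and a median of 1.01. Their summed level was 328 to 776 FPKM in the QC, 448 to 892 FPKM in CSC and 86.5 to 585 FPKM in the other initials. GBSS1, the granule-bound starch synthase, was at 19.6, 63.4 and 31.3 FPKM in the QC and 27.3 to 40.02 FPKM in CSC. APL4, a subunit of ADP-glucose pyrophosphorylase, was at 44.2, 49.7 and 59.96 FPKM in the QC, above all samples of the initials (3.196 ± 0.57, adjusted p = 0.0109, limma). The calls of both were lost without QC replicate 2 or 3 (adjusted p up to 0.154 and 0.0682). None of the 21 markers was listed at 0 in all QC samples. Columella transcripts moved with the genes shared by QC and CSC, and their part in those results was not tested.

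Xylem markers summed to 157 to 179 FPKM in the QC and 1978 to 2859.8 FPKM in Xyl, and 15 of 26 were called lower against Xyl (8.82% of all tested genes), with VND1 listed at 0 in all QC samples. Markers of CEI and ground tissue summed to 67.0 to 672 FPKM in the QC, 416 to 2652 FPKM in CEI and 20.6 to 199 FPKM in the other initials. Of these markers, 1 of 17 was called higher in QC minus initials (SCR), beside 1.41% of all tested genes. In exact permutation tests over all 560 choices of 3 of the 16 samples, neither the number of detected genes (p = 0.482) nor the plastid share of FPKM (1.47 against 1.19%, p = 0.680) separated the QC. The columella sum did not either (exact permutation p = 0.171). The samples of the initials include CSC itself, so that test cannot tell whether the QC differs from the other initials. Summed FPKM was lower in the QC (763358 against 835497, exact permutation p = 0.0446, or 0.402 after adjustment over the 9 measures).

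The remaining lists had 1 call or none each, beside 2.29% of all tested genes called in either direction. DNA damage response had 1 of 32 genes called higher (GMI1), redox 1 of 44 (NTRA), and wounding, jasmonate and heat shock 1 of 40 (AOC4), with medians of -0.35, 0.18 and 0.41. Chromatin and DNA methylation had 1 of 52 called lower (AS1), and phloem markers 0 of 14. In markers of epidermis and lateral root cap 1 of 22 was called higher, the single-repeat MYB gene TRY, at 19.6, 9.08 and 16.6 FPKM in the QC and 4.90 to 22.3 FPKM in CSC.

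The whole niche gave a measure in samples that the comparison did not use, since SCN and NSC were set against each other with 4 samples each. Of the 291 genes higher in the QC, 266 were tested there, and 66 were called higher in SCN (24.8%) and 12 lower (4.51%), beside 6.51% and 12.7% of all 18877 genes tested, with a median of 0.55 against -0.01. RGF8 (6.44), PLT1 (4.60), HSFB4 (4.47), CYP79B3 (4.41), RGF1 (3.98), WIP4 (3.72) and BBM (3.72) were among those higher in SCN, and UPI, annotated as a serine protease inhibitor (-2.32), and AT5G23840 (-1.05) among those lower. AGL42 (2.21) was called as well, but its reporter was used to sort SCN. WOX5 was not called. Of 162 tested genes lower in the QC, 39 were called lower (24.1%), AT3G17100 among them (-1.01, adjusted p = 0.0490, limma), and 9 higher (5.56%), with a median of 0.28. The 39 also hold the ribosomal RNA loci AT2G01010, AT2G01020 and AT3G41979 (-7.86 to -8.16) and the S5 copies AT1G58684, AT1G58983 and AT1G59359 (-5.48 to -5.50). These loci were high in the CEI libraries, and without CEI their QC differences were 0.0055 to 0.29. The part of such loci in the 24.1% was not tested. Of 5 tested genes called higher in all 4 single contrasts, 0 were called in SCN minus NSC.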

How the data were processed

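RNA-Seq of 16 samples in 5 sorted populations was used. The authors deposited FPKM values per gene. Their paper names Bowtie, Tuxedo and Rsubread, and the submitters' processing notes name TopHat2 2.0.13, Cufflinks 2.1.1 and TAIR10. Reads were single-end, and read counts were not recovered from the values, so sequencing depth is unknown and counting intervals are not given. Each column was matched to its sample by the marker's initial and the replicate number, and none was left without a sample. PoissonSeq, the test of the study, needs counts.

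Genes at 1 FPKM or more in at least 3 of the 16 samples were fitted as log2(FPKM + 1) in limma 3.58.1 (R 4.3.3), with 5 population means and trended empirical Bayes variances (two-sided tests, 11 residual degrees of freedom), with Benjamini-Hochberg adjustment over all 20634 genes within each contrast. The fit was tested on simulated data. Sample measures were compared by two-sided exact permutation tests. Other steps used Python 3.11.15 with scipy 1.17.1, pandas 2.3.3, matplotlib 3.10.9 and numpy 2.4.6. Of 33201 identifiers, 32489 matched the TAIR10.1 annotation, which gave names, positions and sequences. Replicates are separate collections by the paper's account.

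The genes described were the markers, the 15 largest differences in each direction among called genes whose QC values did not overlap the initials, up to 10 genes called against all 4 populations, called members of the gene lists, and PLT1, PLT2, SCR, SHR, AGL42 and TCX2. CYCB1;1, HSFB4, TEL1, MIR159a, AT5G23830, CRF4, CYP79B2, CYP83B1 and the neighbours of AT3G17100, among others outside these rules, were chosen after their values were seen. A called gene of the auxin list is not reported here. Members and lists were chosen with earlier results of these data known. Alternatives were another pseudocount (0.1), no filter, TPM, size factors, all 28 samples, no trend, a replicate block, a stricter threshold, other weights, and leaving out each population and each sample. CEI left out of the fit and list medians without each QC sample were added after the data were seen.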

Additional observations from a re-analysis of the deposited data

Results flagged for a closer look

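In the 4 Xyl samples, 14 of the 78 groups of 4 samples examined held 1 sample far from the others, where chance gives about 1 in 20. The sample was the highest at 21.0 FPKM for AOC4, 46.4 for RGF3, 48.0 for SWA1, 2.07 for AT1G12320, 3.91 for AT4G28940, 1.22 for PDC3 and 2.11 for GMI1. The same held at lower levels for WIP4 at 0.897 FPKM, AT5G24206 at 0.457, BGAL7 at 0.324, AT1G48180 at 0.268, WOX5 at 0.220 and AT3G55930 at 0.0946. For TCX2 it was the lowest sample, at 31.2 FPKM. Except for SWA1 and TCX2, these Xyl samples lay below all QC samples. For AT1G12320, AT1G48180, WOX5, AT4G28940, BGAL7 and AT5G24206 the other Xyl samples shared the same value, so that any different value was flagged. The 1 in 20 does not hold for such ties, and the count cannot be set against it.

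The other result comes from the SCN and NSC samples, which the comparison of the QC with the initials did not use. There, 66 genes called higher in the QC were also called higher in SCN minus NSC, a larger share of those tested than among all genes.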

How the results depend on the processing

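The main counts, 291 genes higher and 181 lower, moved with most choices. They were 177 and 96 with a pseudocount of 0.1, 601 and 279 with all 28 samples in the fit, 442 and 306 with equal weight per sample, 455 and 381 with array weights, 666 and 523 without CEI, 623 and 450 without Epi/LRC, 134 and 83 without Xyl, and 796 and 934 with CEI out of the fit, an alternative chosen after the data were seen. In the other 31 alternatives 36 genes stayed called higher and 6 lower. Leaving out 1 sample gave 74 to 626 and 20 to 839. Besides the libraries named in the report, Epi/LRC replicate 3 (529 and 364), CEI replicates 1 and 3 (99 and 104 lower) and Xyl replicates 2, 3 and 4 (119, 114 and 117 lower) moved a count by over 1.5 times.

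With only the QC and that population in the fit, 146 genes were called against CEI (374) and 60 against Epi/LRC (286), and 1 gene was called higher (11) and 1 lower (3) against all 4. Against all 4, a pseudocount of 0.1 gave 5 higher. Leaving out 1 sample gave 108 to 534 against CEI, 142 to 471 against Epi/LRC, 789 to 1980 against CSC (1510), 2428 to 4500 against Xyl (4035), and 2 to 18 in each direction against all 4. Genes called without overlap, 61 higher and 22 lower (134 and 44 of all tested genes, 0.649% and 0.213%, did not overlap), numbered 174 and 185 without CEI, 239 and 64 without Epi/LRC, 192 and 225 with CEI out of the fit, 203 higher without CSC, 34 lower with size factors, and 33 to 120 and 8 to 174 with 1 sample left out. With size factors the calls against CEI split into 122 higher and 284 lower (165 and 209) and those against CSC into 917 and 418 (840 and 670).

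Same-numbered samples did not deviate together (30 pairs, r from -0.27 to 0.34, median -0.03, 2 of 16 samples closest to their own number). The replicate block gave 177 higher and 53 lower, of which 169 and 53 were among the main calls, 189 genes against Epi/LRC, 2016 against Xyl and 6 higher against all 4.

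List medians that moved were, with a pseudocount of 0.1, 0.93 for RGF and CLE, 1.47 for auxin synthesis, -1.64 for growth-regulating factors and 1.38 for epidermis markers, and with size factors 0.33 for brassinosteroid and 0.68 for epidermis markers. Without each QC sample they were -0.49 to -0.27 for E2F, 0.29 to 0.36 for brassinosteroid, 0.14 to 0.62 for ethylene, -0.20 to 0.16 for gibberellin and abscisic acid, 0.58 to 0.72 for epidermis and -0.86 to -0.26 for xylem markers.

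The difference of FEZ was -0.031 without Xyl and -0.99 as a ratio of means. Without CEI, those of AT1G58684, AT1G58983 and AT1G59359 were 0.0055, 0.0055 and 0.0057, and those of AT2G01010, AT2G01020 and AT3G41979 were 0.29, 0.25 and 0.25, also with CEI out of the fit. Of single-gene values, 447 lost their call and 21 gained one. Depth is unknown. Of the 104 called genes described, 98 could be tested without a QC sample, and 71 of these lost their call without QC replicate 2 and 68 without QC replicate 3.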

Other observations

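Genes of glucosinolate synthesis and sulfate activation were also among those called higher in the QC. The group was put together after its values were seen. Of 16 tested genes, 9 were called higher (1.41% of all tested genes) and 0 lower, with a median of 2.23, and the median was 3.88 against Xyl and 0.44 against CSC. In the single contrasts 13 were called higher against Xyl (10.7% of all tested genes) and 6 against Epi/LRC (1.06%). None was called against CEI (0.8% called higher) or CSC (4.07%). The summed level of the group was 4251 to 4661 FPKM in the QC and 2303 to 4918 FPKM in CSC. CYP79B2, the partner of CYP79B3, was at 436, 593 and 601 FPKM in the QC, 264 to 797 FPKM in CSC, 88.0 to 159.5 FPKM in CEI, 39.0 to 213 FPKM in Epi/LRC, at most 0.294 FPKM in 3 of the Xyl samples and 6.0 FPKM in the other (3.21 ± 0.53, adjusted p = 0.00701, limma). CYP83B1, the next enzyme of the pathway, was at 398, 346 and 208 FPKM in the QC and at most 3.75 FPKM in Xyl (3.27 ± 0.60). SOT17 (3.55), SOT18 (3.05), the regulator MYB34 (2.86), the glutathione transferase GSTF9 (2.69) and the kinases AKN2 (2.73) and APK (1.76), which make the sulfate donor also used by TPST, were called as well. Without QC replicate 2 the calls of CYP83B1, SOT18, MYB34, GSTF9, AKN2 and APK were lost, with adjusted p of 0.0751 to 0.169.

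Protein disulfide isomerases, which form disulfide bonds in the endoplasmic reticulum, had 5 of 12 tested genes called higher (1.41% of all tested genes) and no negative difference, with a median of 0.78. PDIL1-1 was at 685, 733 and 988 FPKM in the QC, 307 to 935 FPKM in Epi/LRC and 80.4 to 241 FPKM in the other initials (1.88 ± 0.34, adjusted p = 0.0114, limma). PDIL1-3 differed by 2.54, PDIL1-5 by 2.00, PDIL1-2 by 1.69 and PDIL2-2 by 1.52, and 4 of these 5 calls were lost without QC replicate 2 and all 5 without QC replicate 3. C1 domain proteins had 16 of 104 called higher, and nucleotide-sugar transporters 4 of 29, beside the same 1.41%, and all 4 of the latter calls were lost without QC replicate 2. On the lower side, 4 of 13 plastid transcription complex genes were called (PTAC9, PTAC12, PTAC15 and PTAC18, -1.87 to -2.79, beside 0.877% of all tested genes), with a median of -1.22 and 12 differences below 0, and all 4 calls were lost without QC replicate 2. Of plastid-encoded genes, 12 of 103 were called lower and 0 higher, although the median was 0.18 and 61 differences lay above 0. All 12 were among the 38 genes that stood more than 10 times above every other sample in the CEI libraries. Against CEI alone 21 were called lower (1.01% of all tested genes), against CSC 1 (3.25%), and against Epi/LRC (0.33%) and Xyl (8.82%) 0. These groups were also chosen after their values were seen.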
